A study of Mus musculus with 12 samples.

Results

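The loss of Aire was examined across all measured genes in mTEChi, the medullary thymic epithelial cells with high MHC class II. The comparison sets the 2 arrays titled Aire-/- mTEChi, numbered 1 and 2, against the 2 titled Aire+/+ mTEChi, numbered likewise, which is 4 of the 12 arrays of the series. The arrays were chosen by these titles and not by any measured value. All mice were labelled C57BL/6 and were 4 weeks old, and no group carried an added treatment. Cells were sorted as DAPI-negative, CD45-negative, Epcam-positive, UEA-positive and Ly51-low, and split by high or low MHC class II. The other 8 arrays were 1 each of Aire+/+ and Aire-/- mTEClo, the fraction with low MHC class II, and a second line with 2 arrays each of Brg1+/+ and Brg1-/- mTEChi and 1 each of Brg1+/+ and Brg1-/- mTEClo. The labels give neither the part of Aire that was deleted nor whether the 2 arrays of a group came from separate animals. The p-values below therefore cover no more than the differences among these arrays, and those can be technical.

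Aire is a transcriptional regulator that is made in mature mTECs and is known for switching on many genes whose products otherwise mark peripheral tissues. Developing T cells that bind these self antigens strongly are deleted or become regulatory T cells. Loss of AIRE in humans causes an autoimmune disease of endocrine glands and other organs. Brg1, encoded by Smarca4, is an ATPase of the SWI/SNF chromatin remodelling complexes.

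Values are log2 intensities of 1 probe set for each of 22154 genes, so a difference of 1 is a 2-fold change, and intensities are not comparable between probe sets. Array medians lay between 5.07 and 5.32. Aire itself read 8.04 and 8.80 in Aire+/+ and 9.01 and 9.73 in the arrays labelled Aire-/-, a difference of 0.95 (SE 0.539, limma adjusted p = 1, n = 2 and 2). Where this probe set lies relative to the deleted part is not known here, so the reading checks no label. The defining markers of the sort were present on all 4 arrays: Epcam read between 8.41 and 9.23 and the class II gene H2-Aa between 11.07 and 12.15. The maturation marker Cd80 read 8.96 and 9.76 in Aire+/+ and 9.82 and 10.23 in Aire-/- mTEChi. Arrays with the same number differed from those with the other number in a common direction, so each difference is also given within number 1 and within number 2.

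Without Aire, 171 of 22154 genes fell and 5 rose at an adjusted p under 0.05 (limma, 8 group means over 12 arrays, Benjamini-Hochberg), which is 0.772% and 0.0226% of the genes tested and 0.794% together. The falls were large: the median was -3.34 on the log2 scale, from -7.92 to -1.51, and 163 of the 171 fell at least 4-fold, 102 at least 8-fold and 56 at least 16-fold. Both Aire-/- arrays lay below both Aire+/+ arrays in all 171 and above them in the 5 that rose. The same held for 11.6% and 15.9% of all genes, and nothing is read from this, since the test chose the genes on these arrays. Before adjustment, 872 genes were lower and 337 higher at p under 0.05. The number that passed rested on every one of the 4 arrays. Leaving out Aire+/+ replicate 1 gave 53 and Aire+/+ replicate 2 gave 67, while either Aire-/- replicate gave 70, and all 176 kept their direction in each of these fits. Of 89 genes named here that passed, 26 also passed without each single mTEChi array in turn.

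Within both numbers, 530 genes (2.39%) were at least 2-fold lower without Aire and 70 (0.316%) were at least 2-fold higher. At 4-fold or more the counts were 225 and 4. Only 8 genes moved at least 2-fold in opposite directions in the 2 numbers. All 171 genes that fell were among the 530. Over all genes, 36.7% were higher within both numbers and 23.1% lower, with a median of 0.06. That median rested on single arrays: leaving out Aire+/+ replicate 1 or 2 gave 0.11 or 0.00, and leaving out Aire-/- replicate 1 or 2 gave -0.01 or 0.12. The plot of one within-number difference against the other shows a long arm of lower genes and a short one of higher genes.

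**Figure D1:**
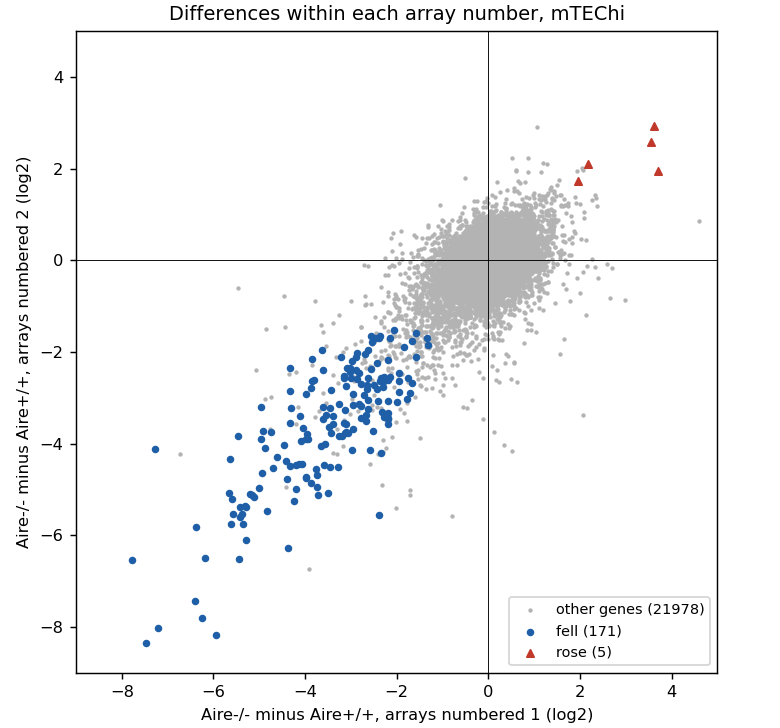
Difference without Aire (log2, Aire-/- minus Aire+/+ mTEChi) within number 1 on the x axis and within number 2 on the y axis, one point per gene, with the 171 genes that fell and the 5 that rose in colour. The falls reach -7.92 on average over both numbers, while the mean rises reach 3.27.

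Of the 171 genes that fell, 57 belong to a list of 367 measured genes of secreted gland and mucosal families (defensins, lipocalins, secretoglobins, major urinary proteins, cystatins and the like), with a median fall of -4.03. Defa21, a Paneth cell defensin, read 11.69 and 12.13 with Aire and 4.21 and 3.78 without it, which was the largest fall (-7.92, SE 0.286, limma adjusted p = 9.56e-05). Defa22, Dcpp2, Mup6 and Dcpp1 followed with -7.62, -7.16, -7.06 and -7.02. The remaining 114 fell by a median of -2.98. Of them, 23 have symbols of predicted genes, clones or a microRNA, or symbols that start with Rn, which are ribonuclease genes. Of the 171, 66 were in no list used here.

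The sequence before the start of the genes that fell differed in composition from that of other genes. RefSeq windows of GRCm38.p6, from 250 bases before to 50 after the start, were at hand for 16912 measured genes and for 142 of the 171. The TATA box is the core promoter element that positions transcription at many tissue-specific genes, and CpG-rich promoters are typical of broadly expressed genes. The letters TATAAA on the gene's strand, entirely within 50 to 11 bases before the start, were found in 39 of the 142 (27.5%) and in 3% of all windows. They were found in 39.5% of the gland family genes that fell and in 22.2% of the others, and anywhere in the window in 35.2% against 8.41% of all. The same letters on the opposite strand, TTTATA, stood in 8.45% against 5.99%. GGGCGG or its reverse complement CCGCCC was found in 14.8% against 46.9% of all windows, and the median number of CG pairs was 3 against 13. Of the 58 genes with a window among the 70 at least 2-fold higher without Aire, 5.17% held TATAAA in that place. Among peptide hormone genes with a window it was in 4 of 15 that fell and in 14 of 47 measured. A match is a description of these letters and not a mapped binding site.

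Examples are printed below from 60 bases to 1 base before the start, 5′ to 3′ on the gene's strand, with TATAAA in capitals. Every fallen gene shown holds TATAAA in that place, while most fallen windows did not (39 of 142 held it, 27.5%). These examples therefore do not stand for the falls as a whole. They show the same letters at a similar distance in genes of gut, urine, airway, pancreas, islet and stomach. The windows of Defa21 and Defa22 are identical over all 60 bases. Tafa1, which rose, is shown for comparison and has no TATAAA here.
Defa21, chr8:21025485-21025544, plus strand: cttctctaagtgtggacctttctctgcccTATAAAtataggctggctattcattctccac
Defa22, chr8:21162217-21162276, plus strand: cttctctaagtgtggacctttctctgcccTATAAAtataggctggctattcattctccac
Mup6, chr4:60003421-60003480, plus strand: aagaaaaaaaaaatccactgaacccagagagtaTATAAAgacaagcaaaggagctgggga
Retnla, chr16:48842549-48842608, plus strand: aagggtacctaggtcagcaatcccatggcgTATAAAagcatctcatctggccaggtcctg
Obp1a, chrX:78091375-78091434, minus strand: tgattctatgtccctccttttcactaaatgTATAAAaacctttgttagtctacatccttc
Reg2, chr6:78405095-78405154, plus strand: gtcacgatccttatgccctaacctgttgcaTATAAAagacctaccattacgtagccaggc
Ppy, chr11:102101320-102101379, minus strand: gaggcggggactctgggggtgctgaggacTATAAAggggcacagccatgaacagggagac
Gkn2, chr6:87373305-87373364, plus strand: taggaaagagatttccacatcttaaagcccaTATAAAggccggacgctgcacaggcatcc
Tafa1, chr6:96113094-96113153, plus strand: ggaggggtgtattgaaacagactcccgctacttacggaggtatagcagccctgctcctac
The genes shown are among the larger falls, all beyond the median of -3.34, from Defa21 (-7.92) and Mup6 (-7.06) through Retnla (-5.70), Obp1a (-5.51), an odorant-binding protein gene, and Reg2 (-5.40), a regenerating-protein gene of the pancreas, to Ppy (-4.99) and Gkn2 (-4.74).

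Outside the gland families, Lce3a, a late cornified envelope gene of the outer epidermis, stood at 10.69 and 10.50 in Aire+/+ and at 4.51 and 4.00 in Aire-/- mTEChi. It fell by 6.34 on the log2 scale (SE 0.400, limma adjusted p = 0.00103), or -6.18 within number 1 and -6.50 within number 2, so the groups lay far apart on both. AA623943, which the annotation does not describe, went from 9.61 and 9.42 to 3.24 and 3.60 (-6.10, SE 0.460, adjusted p = 0.00218). Omt2b, an oocyte transcript, read 9.13 and 8.36 with Aire and 3.85 and 2.25 without it (-5.70, SE 0.740, adjusted p = 0.0183). Both Aire-/- values of Omt2b were far below both Aire+/+ values, although they differed from each other by more than those of Lce3a.

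Genes of immune cells were also among the largest falls. Il9, the gene of the T cell and mast cell cytokine interleukin 9, read 9.48 and 8.99 with Aire and 4.64 and 3.51 without it (-5.16, SE 0.532, limma adjusted p = 0.00704). Ly6g, whose product is a surface marker of neutrophils, read 9.03 and 9.59 against 4.66 and 3.31 (-5.33, SE 0.460, adjusted p = 0.00333). The groups did not overlap in either gene. Of 78 measured interleukin symbols, Il17b and Il31 fell as well, from 8.17 and 8.18 to 5.97 and 4.60 (-2.89, adjusted p = 0.0398) and from 6.91 and 7.16 to 5.33 and 5.57 (-1.59, adjusted p = 0.0444). Xcl1, a chemokine that mTECs are known to make, was the single gene of 28 chemokine ligands to fall. It read 10.10 and 9.55 with Aire and 6.11 and 5.66 without it (-3.94, SE 0.442, adjusted p = 0.0106), and the 28 had a median of -0.51. Ccl6, Cxcl5 and Ccl9 differed by -1.58, -1.53 and -1.41, none past the threshold (adjusted p = 0.192, 0.166 and 1). The list is partial. Of 19 measured Ccl symbols none passed and 6 were at least 2-fold lower within both numbers. The largest of these differences was that of Ccl12 (-2.44), which the list leaves out.

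Ly6g is also a defining marker of neutrophils, so the other neutrophil genes are given beside it, as a list put together after the values were seen. Of 21 measured, Ly6g and Camp (a cathelicidin of neutrophil granules and of epithelia) fell, 13 were lower within both numbers and 1 was higher. Over all genes 0.772% fell, 23.1% were lower within both numbers and 36.7% higher. The summed intensity of the 21 was 12583 and 10275 in Aire+/+ and 4877 and 3717 in Aire-/- mTEChi. S100a8 (12.57 and 12.29 in Aire+/+), S100a9 and Camp read highest and lead this sum, so it is not a change shared by the 21. Camp itself went from 11.13 and 10.65 to 8.26 and 8.63 (-2.44, SE 0.341, limma adjusted p = 0.0260). The calgranulin S100a9, with 11.40 and 10.76 against 9.03 and 8.58, missed the threshold at -2.27 (adjusted p = 0.0690), and S100a8 at -1.10 (adjusted p = 0.677). Elane, the neutrophil elastase gene, differed by -0.01, Mpo by -0.64, Itgam by 0.15 and the pan-leukocyte gene Ptprc by -0.16, each with an adjusted p of 1. The sort took CD45-negative, Epcam-positive cells, and how many neutrophils remained was not measured here. The part of neutrophil RNA in the Ly6g and Camp results was not tested, nor was that of T cell or mast cell RNA in the Il9 result.

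Neuropeptide and peptide hormone genes made up the tissue list with the most falls, 16 of 58 measured (27.6%), against 0.772% of all genes. Of these 58, 46 were lower within both numbers, against 23.1% of all genes, and 27 (46.6%) at least 2-fold, against 2.39%. The median was -1.21 against 0.06 over all genes. Ppy, the pancreatic polypeptide gene of islet F cells, read 11.70 and 11.17 with Aire and 6.69 and 6.20 without it (-4.99, SE 0.442, limma adjusted p = 0.00354). Nts, the neurotensin gene of gut and brain, read 10.65 and 10.41 against 6.26 and 5.63 (-4.58, SE 0.376, adjusted p = 0.00291). Nms, the gene of the hypothalamic peptide neuromedin S, read 9.06 and 9.55 against 5.08 and 4.82 (-4.36, SE 0.372, adjusted p = 0.00316). In all these genes the Aire-/- arrays lay at least 8-fold below the Aire+/+ arrays. Tac2, the neurokinin B gene, and Gal, the galanin gene, fell as well (-4.34 and -4.24). The hypothalamic genes Oxt (oxytocin), Pmch (melanin-concentrating hormone) and Crh (corticotropin-releasing hormone) fell (-4.09, -3.44 and -2.97), as did Cartpt (9.17 and 8.34 against 5.57 and 5.95). Npy, Sst, Nmu, Pyy, Vip, Pomc and the islet amyloid gene Iapp fell too, from -3.13 for Npy to -2.29 for Iapp. Pth, the parathyroid hormone gene, read 8.74 and 8.48 against 5.34 and 4.28 and just missed the threshold (-3.80, adjusted p = 0.0579), as did the relaxin gene Rln1 (-3.62, adjusted p = 0.0672). Ins2, which encodes insulin, differed by -0.60 and Gcg, which encodes glucagon, by -0.17 (adjusted p = 1 for both). The count of 16 rested on single arrays: it was 7 without either Aire+/+ array and 8 without either Aire-/- array.

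Digestive enzymes of the pancreatic acinar cell formed the next list, with 5 of 23 fallen, 19 lower within both numbers and a median of -0.85. Over all genes 0.772% fell, 23.1% were lower within both numbers and the median was 0.06. Pla2g1b, a secreted phospholipase of pancreatic juice, read 9.49 and 9.36 with Aire and 5.77 and 4.24 without it (-4.42, SE 0.508, limma adjusted p = 0.0120). Sycn, the zymogen granule protein syncollin, read 9.41 and 10.10 against 5.66 and 5.41 (-4.22, SE 0.308, adjusted p = 0.00202). Both genes separated the groups by more than 3 log2 units on every array. Cela3b, an elastase, Rnase1, and Zg16, which goblet cells also make, fell by less (-3.19, -1.93 and -2.80). The trypsinogen Prss1 read 10.55 and 10.56 against 5.48 and 8.17, a difference of -3.73 whose Aire-/- arrays stood far apart (adjusted p = 0.105). Without an Aire+/+ array 2 of the 23 passed.

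The lists of other endodermal organs held fewer falls. The share to set beside the counts in these and the next lists is the 0.772% of all genes that fell. In the stomach list 2 of 15 fell: Gkn2, a gastrokine of surface mucous cells (-4.74), and Tff1, a trefoil peptide (-3.77). In the lung list 2 of 12 fell. Sftpc, the surfactant gene of alveolar type II cells, read 8.92 and 8.44 against 5.73 and 4.60 (-3.52, SE 0.416, limma adjusted p = 0.0129), and Scgb1a1 of club cells fell too (-2.33). Of 28 intestinal genes, Fabp2, a fatty acid binding protein of enterocytes, and Zg16 fell (-2.49 and -2.80). Of 39 liver plasma proteins, Fgb, a fibrinogen chain, was the one that fell (-3.20, adjusted p = 0.00988). The albumin gene Alb read 6.80 and 7.24 against 5.72 and 6.25 (-1.04, adjusted p = 0.588). None of 27 liver enzymes and transporters passed in limma, with 5 lower and 1 higher at an unadjusted p under 0.05. Of 138 xenobiotic cytochrome P450s and conjugating enzymes, Cyp1a2 (-2.29) and the estrogen sulfotransferase Sult1e1 (-2.40) fell. At least 2-fold lower within both numbers were 15 of the 138 (10.9%), against 2.39% of all genes. Kap, an androgen-regulated kidney gene, was the single one of 23 kidney genes to fall (-2.98), and the median of that list was -0.04. These small counts rested on single arrays: without Aire+/+ replicate 1 the liver plasma, P450, kidney, lung and intestinal lists had no gene past the threshold.

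In the epidermis list 3 of 61 fell, namely Lce3a, Lce3e (-4.26) and the lipase Lipn (-1.71). Of the 61, 44 were lower within both numbers, against 23.1% of all genes, and the median was -0.54. Lce1e read 8.03 and 6.99 with Aire and 3.62 and 2.04 without it (-4.68, limma adjusted p = 0.0631). Of 72 hair keratins and keratin-associated proteins, Krtap21-1 (-2.74) and Krtap8-1 (-1.58) fell, and the median was -0.27. In the oocyte list 4 of 29 fell. Besides Omt2b these were Oosp1, a secreted oocyte protein (8.81 and 8.54 against 3.84 and 4.65, -4.43, adjusted p = 0.00392), Oog1 (-2.93) and Zp3, a zona pellucida protein (-2.73). None of 44 testis and sperm genes passed in limma, 6 being lower and 0 higher at an unadjusted p under 0.05. Tnp1, a protein that replaces histones in sperm, differed by -1.50 (adjusted p = 0.742).

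Genes of the eye, heart, nervous system and teeth gave a few large falls within lists whose medians lay near that of all genes. Of 50 lens and retina genes 4 fell, with a list median of -0.10: the crystallins Cryba1 (8.62 and 8.94 against 5.17 and 4.42, -3.98, limma adjusted p = 0.0151), Crygc (-3.79) and Crygs (-3.56), and Rpe65, the retinoid isomerase of the retinal pigment epithelium (-2.09). Rbp3, the retinal autoantigen IRBP, read 4.80 and 3.86 against 4.96 and 4.22 (0.26, adjusted p = 1). The groups of Rbp3 overlapped. Of 61 muscle and heart genes Nppb and Nppa, the natriuretic peptide genes of the heart, fell (-3.49 and -2.50), with a list median of -0.02. Of 65 synapse, neuron and glia genes Nefl, a neurofilament, and S100b of glia fell (-2.64 and -1.78), with a list median of 0.01. The enamel genes Amelx and Amtn fell (-2.84 and -2.83) among 21 bone, cartilage and tooth genes. None of 15 steroid and thyroid hormone synthesis genes passed in limma, 2 being lower at an unadjusted p under 0.05.

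Few chemosensory receptors passed. Of 1442 measured olfactory, vomeronasal, trace amine and taste receptors, 1 fell (Olfr324, -2.47) and 1 rose (Olfr1136, 2.83). The fallen share was 0.0693%, against 0.772% of all genes. At least 2-fold lower within both numbers were 5 (0.347%), against 2.39% of all genes. Among 31 mouse counterparts of proteins that autoantibodies target in human AIRE deficiency, Cyp1a2 was the one that fell, and the median was -0.14. Bpifb1 differed by -1.64 (limma adjusted p = 0.420), Th, the rate-limiting enzyme of catecholamine synthesis, by -1.08 (adjusted p = 0.312) and Cyp11a1, which starts steroid synthesis, by -1.03 (adjusted p = 0.833). Over all tissue lists together, 50 of 2236 genes fell (2.24%, against 0.772% of all genes) and 1 rose. The plot of gene lists shows peptide hormones, acinar enzymes and gland families with the largest shares of genes at least 2-fold lower within both numbers.

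**Figure D2:**
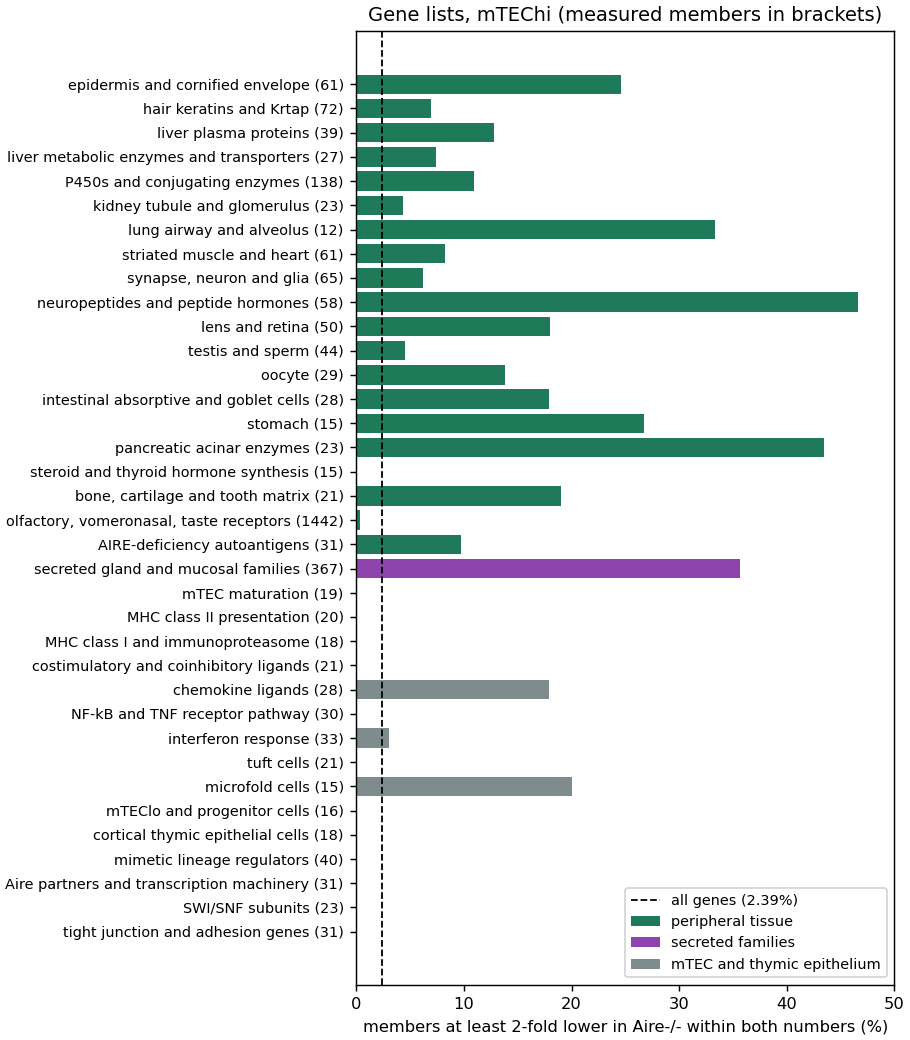
Share of the measured genes of each list (percent, x axis) that were at least 2-fold lower in Aire-/- than in Aire+/+ mTEChi within both numbers, with the number measured in brackets and a dashed line at 2.39%, the share of all genes. Peptide hormones reach 46.6%, acinar enzymes 43.5% and gland families 35.7%, while mTEC maturation and class II presentation are at 0%.

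Genes that fell lay near one another on the chromosomes. Of the 171, 59 (34.5%) had another fallen gene among the 2 nearest measured genes on either side, against 2.68% of all 21967 genes with a position. They formed 24 runs, 7 of them with 3 or more fallen genes. With 1 neighbour on either side the share was 25.7% and with 5 it was 45.6%. On chromosome 11 Ppy and Pyy, which encode a pair of related peptides of islet and gut, fell (-4.99 and -2.72). On chromosome 4 Nppa and Nppb stood side by side, and on chromosome 19 the oocyte genes Oosp1 and Oosp2 fell (-4.43 and -2.92). Mcpt2 and Mcpt1, mast cell proteases on chromosome 14 that the gland family list includes, fell (-5.15 and -3.55). So did Retnla and Retnlb, resistin-like genes on chromosome 16 (-5.70 and -3.42). Some runs join genes with different symbols: Svs5, a seminal vesicle protein, and Slpi, a protease inhibitor of mucosal fluids, fell on chromosome 2 (-3.34 and -2.58). Lipases with alike symbols fell on chromosome 19, namely Lipf, the gastric lipase gene, and Lipn of the epidermis (-3.41 and -1.71). Where family members are alike, 1 probe set can pick up RNA of more than 1 of them. Probe sequences were not used here.

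The LY6/uPAR group on chromosome 15, small proteins most of which are anchored to the cell surface or secreted, held 2 of these runs. It was singled out after its values were seen. Of 20 measured members 7 fell and none rose, against 0.772% and 0.0226% of all genes, and the median was -0.91. Ly6a2 read 10.20 and 10.64 with Aire and 5.87 and 6.16 without it (-4.41, SE 0.275, limma adjusted p = 0.00103). Ly6c2 read 10.76 and 10.71 against 6.96 and 8.09 (-3.21, SE 0.373, adjusted p = 0.0121), and Psca, the prostate stem cell antigen gene, 7.65 and 8.51 against 5.07 and 4.36 (-3.37, SE 0.362, adjusted p = 0.00862). The groups lay apart in each of these. Ly6g and Ly6f fell (-5.33 and -3.02), as did Slurp2 and Lypd2, genes of squamous epithelia (-2.61 and -2.60). Slurp1 and Ly6c1 differed by -2.01 and -2.23 without passing (adjusted p = 0.0790 and 0.139). Other members differed less: Ly6e differed by -0.03, Ly6i by 0.26 and Ly6d, an epithelial marker, by -0.80 (adjusted p = 0.544). The plot of the group along the chromosome shows the falls in a pair of stretches, with smaller differences between them and after the second.

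**Figure D3:**
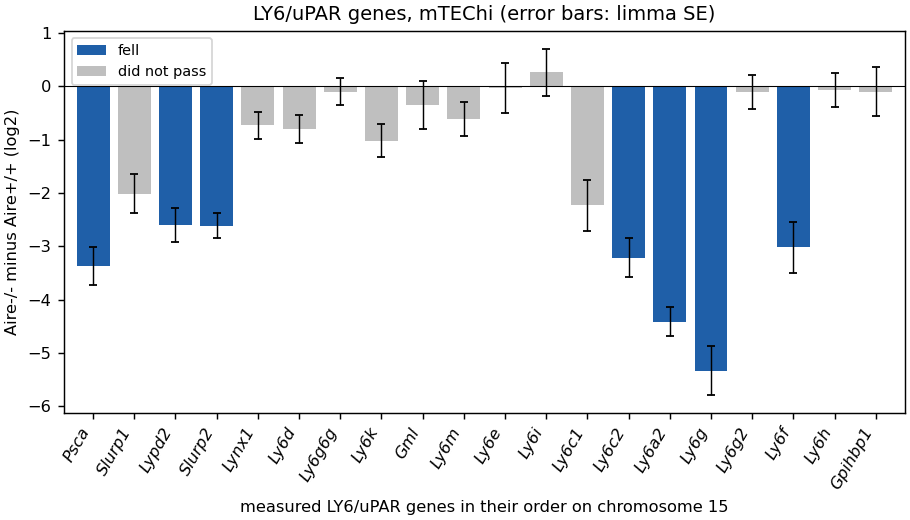
Difference without Aire (log2, Aire-/- minus Aire+/+ mTEChi) for 20 genes of the LY6/uPAR group in their order on chromosome 15, as bars with the limma SE (n = 2 and 2), blue for the 7 that fell and grey for those that did not pass. Ly6g is lowest at -5.33, and Ly6e, between the stretches of falls, is at -0.03.

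The falls were counted by symbol family. Left out were predicted genes, clones, microRNAs, the Olfr receptors and every symbol that starts with Rn. The ribonuclease genes that fell and Olfr324 are therefore not in these counts. Of 333 symbol families with at least 8 measured genes, 27 had a member that fell and 7 had 3 or more. These 7 were the Defb (8 of 42), Defa (6 of 10), Scgb (5 of 23), Lcn (5 of 10), Ly (4 of 23), Cst (3 of 8) and Il (3 of 78) symbols. None of 361 solute carriers (Slc), 370 zinc finger genes (Zfp) or 287 vomeronasal receptors (Vmn) fell, against 0.772% of all genes. At least 2-fold lower within both numbers were 0, 0 and 1 of them, against 2.39% of all genes.

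Tafa1 and Dusp15 were among the 5 genes that rose. Tafa1, which encodes a secreted chemokine-like protein of the brain, read 6.78 and 6.49 with Aire and 8.96 and 8.60 without it (2.14, SE 0.255, limma adjusted p = 0.0130). Dusp15, a dual-specificity phosphatase gene, read 7.35 and 7.56 against 9.31 and 9.29 (1.85, SE 0.269, adjusted p = 0.0321). The predicted gene Gm5086 rose by 3.06, the clone 1700003P14Rik by 3.27 and Olfr1136 by 2.83. The Aire-/- arrays lay above the Aire+/+ arrays in each, but all 5 lost the threshold when Aire+/+ replicate 1, Aire+/+ replicate 2 or Aire-/- replicate 1 was left out, and 2 higher genes passed without Aire-/- replicate 2. Just outside the threshold stood Amdhd1, an enzyme of histidine breakdown (6.07 and 6.42 against 8.13 and 8.39, 2.01, adjusted p = 0.0503), Lrat, which esterifies retinol (6.67 and 6.51 against 8.26 and 7.93, 1.51, adjusted p = 0.0540), and Ptchd4 (1.44, adjusted p = 0.0579). These differences were near those of Dusp15 but did not pass.

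Among the 70 genes at least 2-fold higher within both numbers, 23 were counted by symbol as predicted genes, clones or microRNAs. That count may take in symbols that start with Rn. Il13, a type 2 cytokine gene, read 6.33 and 7.42 with Aire and 7.77 and 8.94 without it (1.48, limma adjusted p = 0.808). Its groups did not overlap, but the 2 arrays of each genotype lay more than 2-fold apart. The adaptor gene Stap1 (1.65), the calcium-binding gene S100a5 (1.58), the lipid transfer gene Pitpnc1 (1.63), Ccdc38 (1.88) and the synapsin Syn2 (1.45) belonged to the same set, with adjusted p between 0.361 and 0.837. Further genes of the set, named after their values were seen, were Il4 (1.38), Hal (1.50), which acts before Amdhd1 in histidine breakdown, and Cyp26a1 (1.78), which breaks down retinoic acid. Their adjusted p were 1, 0.457 and 0.219.

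**Figure D4:**
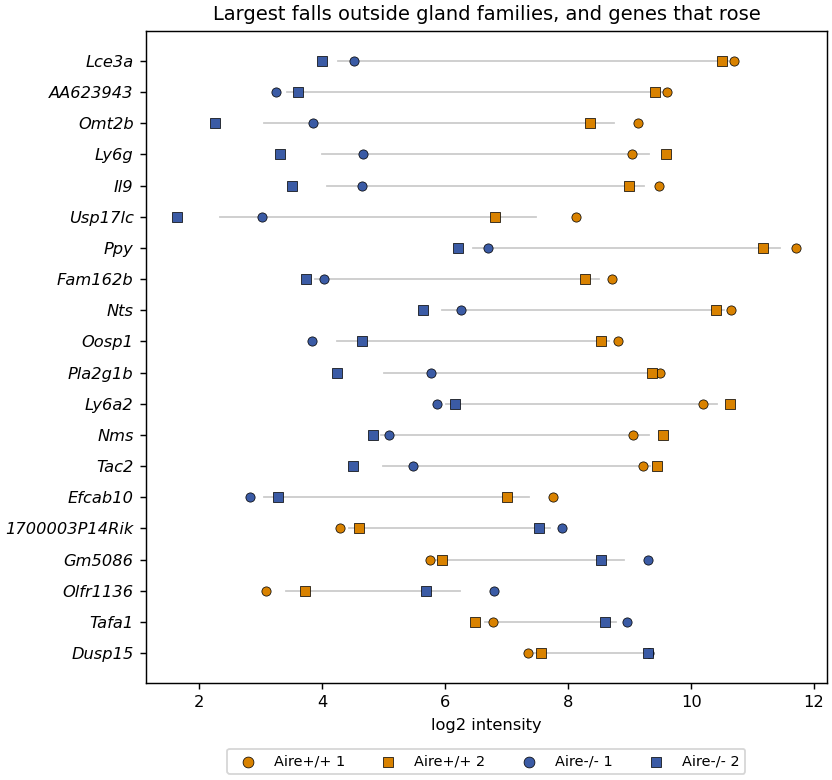
Log2 intensity on each of the 4 Aire line mTEChi arrays for the 15 largest falls outside the gland families and the 5 genes that rose, with circles for number 1, squares for number 2 and a grey line between the group means. The 15 leave out symbols of predicted genes, clones and microRNAs and those that start with Rn, some of which fell by more. The 2 Aire-/- points of Lce3a lie at 4.51 and 4.00, below its Aire+/+ points at 10.69 and 10.50, and those of Tafa1 lie at 8.96 and 8.60, above 6.78 and 6.49.

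Lists of mTEC identity and of general cell state held no gene that passed, apart from Xcl1 among the chemokines. With 0.772% of all genes lower and 0.0226% higher, no call in a list of this size is near the background and is no result about the list. None of 19 mTEC maturation genes passed in limma at the adjusted threshold or at an unadjusted p under 0.05, and the median was 0.12. Fezf2, another transcriptional regulator of self antigens in mTECs, read 8.31 and 8.83 against 8.52 and 8.88 (0.13, adjusted p = 1), and Cd86 7.98 and 7.26 against 7.79 and 7.48 (0.01, adjusted p = 1). The groups overlapped in both. The class II presentation list (20 genes, median 0.26), the NF-kB and TNF receptor list (30 genes, median 0.21) and the cytosolic ribosomal proteins (89 genes, median 0.14) had no gene past either threshold. Of these lists 15, 20 and 51 genes were higher within both numbers, against 36.7% of all genes. Proteins that bind or assist Aire and the transcription machinery (31 genes, median -0.01), SWI/SNF subunits (23 genes), tuft cell genes (21 genes, median -0.15) and the cell cycle list (36 genes, median -0.03) also had none past either threshold. Of 33 interferon response genes none passed and 2 were lower at an unadjusted p under 0.05. Of 15 microfold cell genes none passed and 4 were lower at an unadjusted p under 0.05, with Gp2, the microfold receptor for bacterial fimbriae, at -1.80 (adjusted p = 0.723). In whole-population RNA, fewer cells of a type and less RNA per cell cannot be told apart.

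Markers of other cells that a sort could carry were summed on each array. Summed intensity was 851 and 1667 in Aire+/+ and 855 and 1359 in Aire-/- mTEChi for 15 thymocyte genes. It was 2137 and 2791 against 1856 and 2642 for 21 genes of dendritic cells, macrophages and B cells, and 583 and 619 against 592 and 556 for 15 endothelial genes. These groups overlapped or nearly so. The 8 erythroid and granulocytic genes summed to 11257 and 8647 with Aire and 4277 and 2997 without it, a ratio of 0.365. They include Camp, S100a8 and S100a9, which lead this sum too, and Camp was the one that fell. The 18 fibroblast and mural cell genes summed to 1933 and 1807 with Aire and 2603 and 2538 without it, a ratio of 1.37, and Lum, a collagen-binding proteoglycan, differed by 1.39 (limma adjusted p = 0.532). No gene of that list passed, with 1 lower and 2 higher at an unadjusted p under 0.05. The part of these cells in the 5 rises was not tested.

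Most of the genes that fell were higher in mTEChi than in mTEClo of the other line. On the arrays numbered 1, Brg1+/+ mTEChi minus Brg1+/+ mTEClo had a median of 2.53 over the 171 genes, which were at least 2-fold higher in mTEChi in 83.6% of cases against 5.65% of all genes. All genes had a median of -0.06. These arrays are not in the Aire comparison, but each is a lone array here, so the values are a description with no test. Of the 171, 163 were higher in mTEChi, among them 107 of the 114 outside the gland families. The 70 genes that were at least 2-fold higher without Aire had a median of 1.23, and 64 of them were higher in mTEChi too. Using the mean of both Brg1+/+ mTEChi arrays, the medians were 2.22, -0.10 and 1.11. The plot of the fraction difference shows the curves of both sets to the right of that of all genes.

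**Figure D5:**
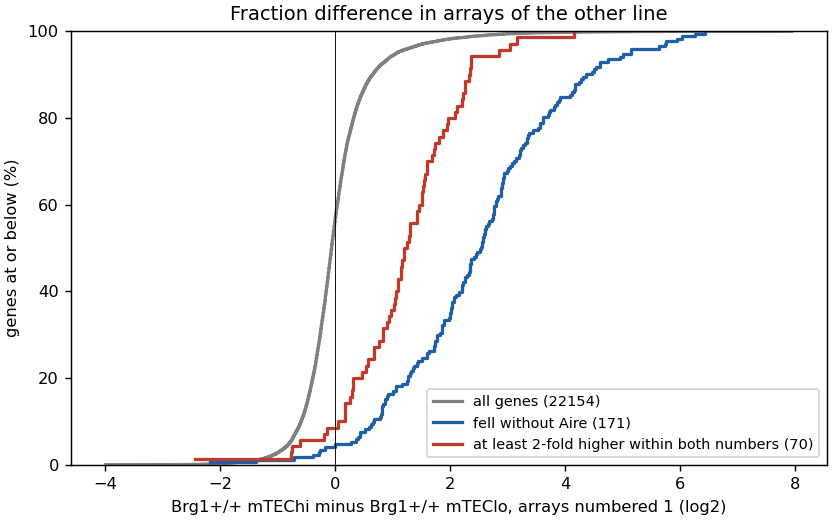
Cumulative share of genes (percent, y axis) by the difference between Brg1+/+ mTEChi and Brg1+/+ mTEClo (log2, arrays numbered 1) for all 22154 genes, the 171 genes that fell without Aire and the 70 that were at least 2-fold higher within both numbers. Medians are -0.06, 2.53 and 1.23.

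The same genes were read in the Brg1 line. In Brg1-/- against Brg1+/+ mTEChi the 171 genes had a median of -0.22 (all genes 0.00). Of the 171, 114 (66.7%) were below 0, against 50% of all genes, and 13 (7.6%) were at least 2-fold lower, against 0.474%. Of the 57 gland family genes 51 (89.5%) were below 0. Of the other 114 it was 63 (55.3%), near the share of all genes. At least 2-fold lower were 7 of the 57 (12.3%) and 6 of the 114 (5.26%), against 0.474% of all genes. The difference between the Aire and Brg1 effects passed for 30 genes (limma, 0.135% of all genes), each with the Aire effect the lower and each among the 171. Of the 30, 16 were gland family genes and 14 were not. The second group included Lce3a, Ly6a2, Ly6g, Nts, Ppy, Tac2, Gal, Pmch, Slurp2 and Sycn. For Ppy the Aire difference was -4.99 and the Brg1 difference 0.21, apart by -5.19 (adjusted p = 0.0410), and for Lce3a they were -6.34 and -0.07, apart by -6.27 (adjusted p = 0.0135). The count depended on single arrays. Leaving out Aire+/+ replicate 1 or 2 gave 5 or 4, Aire-/- replicate 1 gave 15, Brg1+/+ replicate 2 gave 13 and either Brg1-/- replicate gave 4.

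In mTEClo, where each genotype had 1 array, the 171 genes differed between Aire-/- and Aire+/+ by a median of -0.54 (all genes 0.04). Of them, 129 were lower without Aire and 54 (31.6%) at least 2-fold lower, against 1.57% of all genes. The difference between the effects in mTEChi and in mTEClo passed for no gene (limma, 0% of all genes, 547 at an unadjusted p under 0.05), with each lone mTEClo array assumed to vary like the mTEChi groups. Nts differed by -1.65 in mTEClo and by -4.58 in mTEChi. Ppy differed by -1.36 and -4.99, while in mTEClo Il9 differed by 0.38 and Oxt by -0.25.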

How the data were processed

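RNA from sorted mTEC fractions was measured on 12 Affymetrix arrays. The deposited values are intensities on a linear scale for 33732 probe sets, made with RMA, per the submitters' processing notes, which also list Affymetrix Expression Console and the Transcriptome Analysis Console and give no version. Here log2 of each deposited intensity was taken, with no pseudocount and no normalization added. Of the probe sets, 23491 had 1 gene symbol in the platform annotation, 1811 several and 8430 none. The one with the highest mean was kept per gene, leaving 22154 genes, 21968 of them with a RefSeq entry (GRCm38.p6), which gave chromosome order.

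Tests used limma 3.58.1 in R 4.3.3 (lmFit and eBayes) on 8 group means over 12 arrays, with 4 residual and 3.46 prior degrees of freedom, two-sided, Benjamini-Hochberg adjusted over all genes. The code was tested on simulated arrays. Members, gene lists and tests were chosen with earlier results of these data known. Named were the 15 largest falls outside the gland families and the 5 largest inside, every gene that rose, the 12 genes with the largest smaller within-number rise, up to 4 genes of each list with the smallest adjusted p, the 2 largest differences of lists with none, and the 2 largest of runs described. Left out of the 15, 5 and 12 were symbols of predicted genes, clones and microRNAs and those that start with Rn. Among those left out, a predicted gene differed by -6.92, beyond Lce3a, and a ribonuclease gene by -4.49. Other genes named were chosen after their values were seen. Alternatives were other normalizations, filters, array sets and left-out arrays. Precision is limited by 2 arrays a group.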

Additional observations from a re-analysis of the deposited data

How the results depend on the processing

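The number of genes that passed for the loss of Aire (176) stayed within 1.5 times, between 156 and 187, under the alternatives that left out no single array and used no block. Leaving out 1 mTEChi array gave between 53 and 184. The labels do not say that a number marks a shared litter or day. Differences between numbers 1 and 2 correlated across genes at 0.657 between Aire+/+ and Aire-/- mTEChi, and at 0.552 or more over all pairs of mTEChi groups. With the replicate block 531 genes passed, of which 465 were lower and 66 were higher, and these held all 176. The difference between the Aire and Brg1 effects passed for 30 genes, for 201 with the replicate block, for 48 with each array centred on its median, and for between 4 and 28 when 1 array was left out. The difference between the effects in mTEChi and mTEClo passed for 63 genes with the block, 60 of them lower and 3 higher, and for none under the other alternatives run. Within-number counts of 530 and 70 became 533 and 68 after centring and 516 and 75 after quantile normalization. Of the 89 genes named that passed, 66 also passed under every alternative that kept all arrays and tested them. Under quantile normalization the differences of Elane and Ly6e, which did not pass, turned to 0.01 and 0.04. With 1 array left out, differences that had not passed crossed 0: Cd86 ranged from -0.35 to 0.37, Elane from -0.30 to 0.27, Epcam from -0.68 to 0.03, Fezf2 from -0.13 to 0.39, H2-Aa from -0.19 to 0.67, Itgam from -0.02 to 0.32, Ly6e from -0.22 to 0.17, and both Ly6i and Rbp3 from -0.21 to 0.73. Limits are 2 arrays a group, no detection call, and lone mTEClo arrays.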

Other observations

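Genes of motile cilia were put together as a list after some values were seen, so the counts are no result about the list as a whole. Of 70 measured, 3 fell in mTEChi without Aire and none rose, against 0.772% and 0.0226% of all genes. The median was -0.05. Efcab10, an EF-hand gene, fell from a mean of 7.37 with Aire to 3.05 without it (-4.32, SE 0.436, limma adjusted p = 0.00630), or -4.92 within number 1 and -3.72 within number 2. Tmem212 read 7.70 and 7.61 against 3.76 and 3.71 (-3.92, SE 0.319, adjusted p = 0.00291), and Ppil6 fell by 2.82 (adjusted p = 0.0121). The groups lay far apart in all 3 genes. Dynlrb2, a dynein light chain gene, read 9.77 and 8.85 against 6.46 and 4.62 but did not pass (-3.77, adjusted p = 0.103). On the lone mTEClo arrays Efcab10, Tmem212 and Ppil6 differed by -2.08, -2.83 and -2.18 without Aire. There 9 of the 70 genes were at least 2-fold lower, against 1.57% of all genes. Unlike most genes that fell, Efcab10, Tmem212 and Ppil6 read lower in mTEChi than in mTEClo on the Brg1+/+ arrays numbered 1 (-1.37, -2.18 and -0.72).

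Of 483 measured microRNA genes 1 fell and none rose, against 0.772% and 0.0226% of all genes. Mir215, named after its values were seen, read 7.20 and 8.32 with Aire and 3.75 and 5.10 without it (-3.34, SE 0.525, limma adjusted p = 0.0430), and the groups did not overlap. It differed by 0.44 with loss of Brg1 and by 0.70 with loss of Aire in mTEClo. The array reads its precursor, not the mature arms, which RefSeq (GRCm38.p6) gives on the plus strand of chromosome 1 as follows, with the seed (bases 2 to 8) in capitals.
mmu-miR-215-5p: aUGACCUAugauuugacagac
mmu-miR-215-3p: uCUGUCAUucuguaggccaau

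Other genes with large falls stood outside every tissue described. Fam162b read 8.72 and 8.28 with Aire and 4.02 and 3.74 without it (-4.62, SE 0.581, limma adjusted p = 0.0155). Usp17lc, a deubiquitinase gene, read 8.13 and 6.81 against 3.02 and 1.64 (-5.14, SE 0.652, adjusted p = 0.0162). In both genes the Aire-/- arrays lay below the Aire+/+ arrays, although the values of Usp17lc also differed between numbers within each genotype.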
